A study of Mus musculus with 12 samples.

Results

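Collagen chains are the polypeptides that wind in threes into the triple helices of collagen fibrils, networks and membrane-bound collagens. The 44 genes described here are all those in the deposited count table of 27179 mouse genes whose symbol has the form Col, a number, the letter a and a number. They were divided by textbook knowledge of where each chain is made: 4 neuronal chains, 10 chains typical of meningeal fibroblasts, 4 chains of the vascular basement membrane and 26 others. These classes do not come from the samples, and the cell source of each chain in them was not tested. RNA came from the cortex of mice in 3 groups of 4 libraries. The MUT group (Grn-/-;GRNmEx5) lacks mouse Grn and belongs to a humanized line that carries a pathogenic deletion in human GRN, the KO group (Grn-/-) lacks mouse Grn, and the WT group (Grn+/+) has it intact. The MUT mice were 272 to 309 days old, the KO mice 282 to 308 days, and the WT mice 287 days in 1 case (WT1) and 375 days in 3 (WT2, WT3 and WT4). The loss of mouse Grn in both null groups is not limited to a cell type, so neurons and other cells are not separated. Progranulin is a secreted protein that is carried to lysosomes.

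Each collagen chain holds a long run of glycine-led triplets, which is what allows the helix to form. Fibrillar chains build the rope-like fibrils of connective tissue, network chains such as those of type IV form the sheet around blood vessels, fibril-associated chains decorate fibrils, and transmembrane chains sit on cell surfaces and can be shed. The brain parenchyma is poor in fibrillar collagen: most of it lies in the meninges and vessel walls, while a few chains, Col19a1 among them, are made by neurons.

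The libraries held 16381221 to 20782195 counts each, and the 44 chains together took 0.0699% to 0.0841% of them. Levels are given as CPM, counts scaled to the library size after its adjustment by the TMM method, and as CPM per kb of exon where genes are compared with each other. Of the 44 chains, 43 passed the filter on low counts. Col10a1, a chain of growing cartilage, had 0 to 14 counts per library and was not measured. Grn checked the labels of the null groups against WT, but it cannot tell MUT from KO. It measured 11.5, 13.8, 13.3 and 15.3 CPM in MUT, 12.9, 10.8, 13.4 and 14.0 CPM in KO, and 57.2, 59.9, 57.6 and 57.0 CPM in WT. Xist, made from the inactive X chromosome, measured 0.0529 to 1.05 CPM in the libraries labelled female and 464 to 677 CPM in those labelled male, so sex is called labelled sex here. The cortical markers Slc17a7 and Tbr1 were present in every library. Markers of other tissue set some libraries apart: Ttr, the main transcript of the choroid plexus, measured 1283 CPM in MUT1, 1838 CPM in KO3 and 598 CPM in WT4, and at most 42.7 CPM in the other 9 libraries. Ppp1r1b, a marker of striatal neurons, measured 59.7 to 72.5 CPM in MUT, 68.0, 76.0, 116 and 68.3 CPM in KO, and 63.2, 155, 253 and 444 CPM in WT, so the 3 oldest WT libraries are also the highest in striatal RNA. These 3 are also labelled male and WT1 female, so between WT1 and the other WT libraries age, striatal RNA and labelled sex cannot be told apart, nor can age and the WT genotype in the 3. Labelled sex is male for MUT3, KO1 and KO2 and female for the other null libraries.

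Promoter windows are shown for the chains on which the results turn: the called gene Col19a1, the head-to-head pair Col4a1 and Col4a2, and the fibrillar chains Col1a2 and Col3a1, which were high in the same libraries. Each runs from 250 bases before to 50 bases after a RefSeq start site in the GRCm38.p6 assembly and is written 5′ to 3′ on the gene's own strand. The windows lie at chr1:24587388-24587687 (minus strand) for Col19a1, chr8:11312777-11313076 (minus) for Col4a1, chr8:11312555-11312854 (plus) for Col4a2, chr6:4505368-4505667 (plus) for Col1a2 and chr1:45311288-45311587 (plus) for Col3a1. Capitals mark matches, on either strand, to the CCAAT box, to the GGGCGG box that factors of the Sp1 family are known to bind, and to the TATAAA box.
Col19a1: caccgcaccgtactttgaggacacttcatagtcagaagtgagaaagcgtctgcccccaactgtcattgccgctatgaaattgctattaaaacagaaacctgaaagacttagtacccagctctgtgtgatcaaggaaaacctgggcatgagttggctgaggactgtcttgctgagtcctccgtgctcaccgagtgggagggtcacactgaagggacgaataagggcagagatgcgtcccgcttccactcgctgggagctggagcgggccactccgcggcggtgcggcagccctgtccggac
Col4a1: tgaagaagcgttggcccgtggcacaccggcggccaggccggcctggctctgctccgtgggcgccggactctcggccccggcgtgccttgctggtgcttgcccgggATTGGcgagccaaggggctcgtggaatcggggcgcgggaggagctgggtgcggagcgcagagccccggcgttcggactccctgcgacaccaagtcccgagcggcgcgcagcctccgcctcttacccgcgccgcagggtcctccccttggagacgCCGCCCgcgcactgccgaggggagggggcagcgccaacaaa
Col4a2: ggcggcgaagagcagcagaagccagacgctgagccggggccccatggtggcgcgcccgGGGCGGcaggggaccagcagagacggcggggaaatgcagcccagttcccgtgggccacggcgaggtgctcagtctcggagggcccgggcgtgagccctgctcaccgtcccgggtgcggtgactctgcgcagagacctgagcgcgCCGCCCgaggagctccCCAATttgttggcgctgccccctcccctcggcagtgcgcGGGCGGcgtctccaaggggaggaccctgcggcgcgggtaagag
Col1a2: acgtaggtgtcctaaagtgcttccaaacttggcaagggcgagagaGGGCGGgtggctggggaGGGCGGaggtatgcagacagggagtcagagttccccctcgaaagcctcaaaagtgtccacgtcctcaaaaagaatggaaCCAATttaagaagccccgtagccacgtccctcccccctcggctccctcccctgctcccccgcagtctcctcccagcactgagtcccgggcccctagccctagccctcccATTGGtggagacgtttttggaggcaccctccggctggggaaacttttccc
Col3a1: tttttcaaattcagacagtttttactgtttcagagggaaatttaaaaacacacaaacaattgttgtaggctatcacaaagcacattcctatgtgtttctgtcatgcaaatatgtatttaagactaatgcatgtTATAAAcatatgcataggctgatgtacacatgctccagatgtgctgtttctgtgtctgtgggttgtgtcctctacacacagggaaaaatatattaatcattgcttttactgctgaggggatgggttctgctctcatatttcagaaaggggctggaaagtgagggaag

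The Col4a1 and Col4a2 windows share 78 bases (11312777 to 11312854), and a single GGGCGG match lies in that stretch, read as CCGCCC on the Col4a1 strand. The Col19a1 window held none of these motifs and the Col3a1 window held TATAAA alone. RefSeq windows were matched for 35 of the 44 genes, in 38 windows. GGGCGG was found in 60.5% of these windows and in 35.7% of all 32851 windows of the same length. CCAAT was found in 34.2% of the collagen windows and 37.4% of all windows, and TATAAA in 13.2% and 13.6%. These matches are letters in a window and do not show that a factor binds there.

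The exons that code for the helix give these genes a shape of their own. In the deposited coordinates 468 of the 2028 exons of the 44 genes (23.1%) were exactly 54 bases long, which is a whole number of glycine-led triplets, against 0.33% of the 220968 exons of all other genes. Among the fibrillar chains the share was 47.1%, among the fibril-associated chains 24.7%, and among the type IV network chains 4.03%. Exon lengths divisible by 9 made up 60.8% of collagen exons and 13.0% of all other exons. The median collagen gene had 48 exons, against 5 for all other genes, and Col19a1 had 51, of which 15 were 54 bases long.

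The most abundant chain per length was Col6a1, a subunit of the type VI beaded filaments, at 27.6 CPM per kb of exon over the 12 libraries. Next came Col4a2 at 15.2, Col5a1, a fibrillar chain that starts fibril assembly, at 10.3, Col4a1 at 10.1 and Col6a2 at 8.48 CPM per kb. Of the neuronal chains, Col25a1 stood at 5.23, Col19a1 at 3.36, Col23a1 at 2.66 and Col24a1 at 2.23 CPM per kb. Among chains outside the 3 classes, the fibril-associated chain Col16a1 (6.41 CPM per kb), the type XI fibrillar chain Col11a2 (6.38), the type IX fibril-associated chain Col9a3 (5.64) and Col26a1 (3.52) were the highest. The library ranges of neighbours in this order overlap, as those of Col5a1 and Col4a1 do. The steadiest chains were Col16a1, whose highest library was 1.3 times its lowest, Col27a1 and Col11a2. The least steady were Col17a1 (38.8 times) and Col3a1 (19.3 times), named here after their values were seen.

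**Figure D1:**
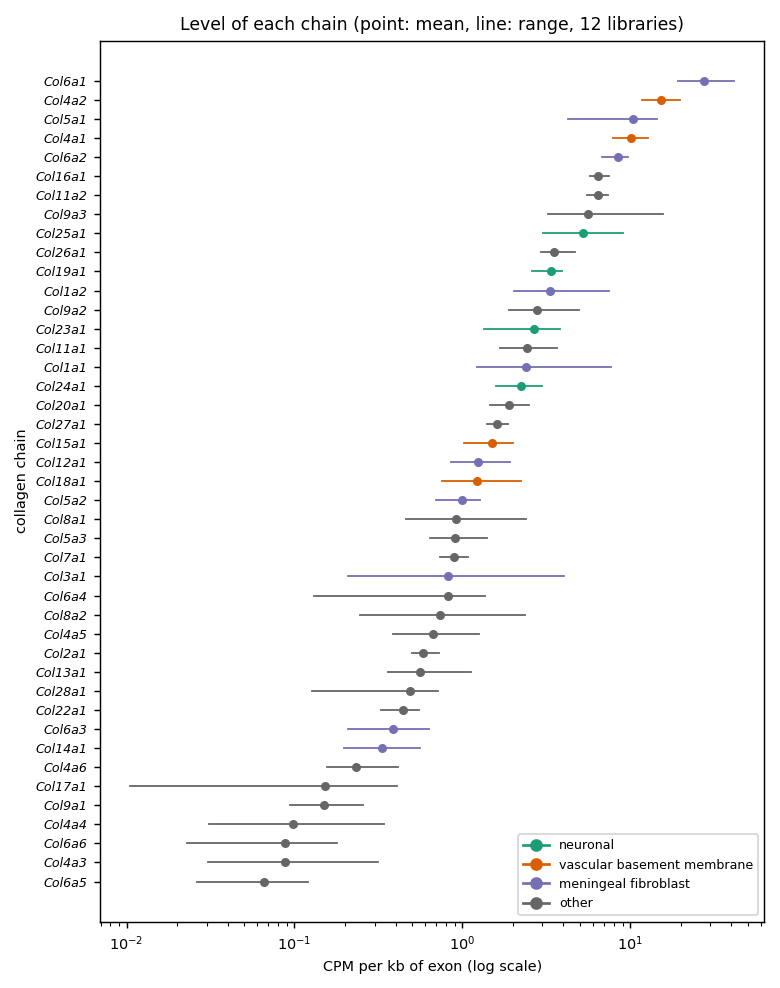
Mean level of each of the 43 measured chains in CPM per kb of exon, on a log axis, with lines from the lowest to the highest of the 12 libraries and colours for the 4 classes. Col6a1 leads at 27.6 CPM per kb, and the chains at the bottom lie below 0.1 CPM per kb.

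One chain, Col19a1, passed the test for a difference between groups, and it fell in KO. Among all 15298 genes tested, edgeR's quasi-likelihood test called 75 (0.49%) between KO and WT at an adjusted p under 0.05, of which 53 (0.346%) were lower. Of the 43 chains tested, 1 was called lower and 0 higher, where 0.144% of all genes were called higher. Between MUT and WT 2 genes were called (0.0131%) and between MUT and KO 1 gene (0.00654%), and 0 of the 43 chains was called in either. At an unadjusted p under 0.05, edgeR gave 4 chains higher and 7 lower in KO against WT (25.6% of chains, with 17.6% of all genes: 7.92% higher and 9.71% lower). The counts were 2 higher and 6 lower in MUT against WT (18.6%, with 10.9% of all genes: 4.85% higher and 6.01% lower) and 1 higher and 0 lower in MUT against KO (2.33%, with 5.69% of all genes: 3.57% higher and 2.12% lower). DESeq2 called 4 chains between KO and WT, where it called 647 genes (4.23%), and 0 in MUT against WT (0.34% of all genes) and in MUT against KO (0.0981%).

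The median log2 fold change over the 43 chains was -0.07 in KO against WT, -0.15 in MUT against WT and -0.06 in MUT against KO, while the medians of all genes lay within 0.005 of 0 in all 3 comparisons. In KO against WT the median was -0.37 for the neuronal chains, -0.24 for the vascular, 0.01 for the meningeal and -0.05 for the 25 other chains measured. In MUT against WT it was -0.10 for the neuronal chains, -0.24 for the vascular, -0.18 for the meningeal and -0.10 for the others. In MUT against KO it was 0.27 for the neuronal chains, 0.07 for the vascular, -0.14 for the meningeal and -0.06 for the others. The KO and MUT comparisons share the WT libraries.

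**Figure D2:**
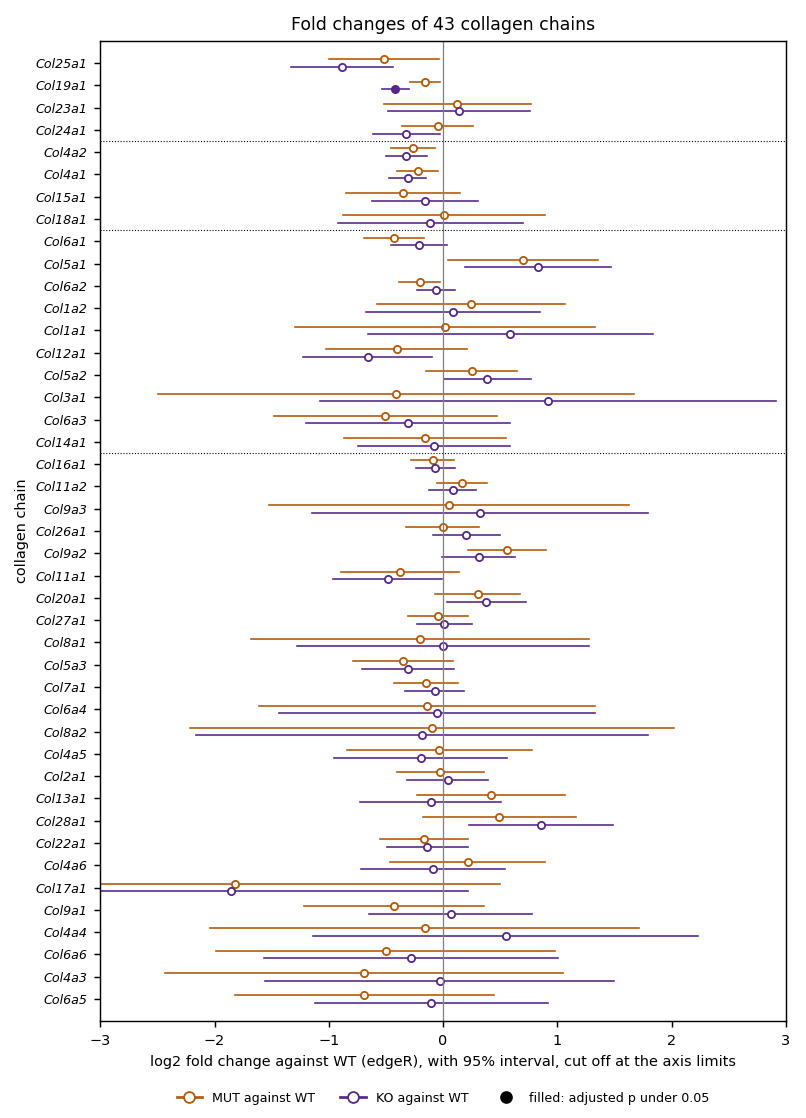
The log2 fold change against WT of each of the 43 chains, in the classes from top to bottom neuronal, vascular basement membrane, meningeal fibroblast and other, with 95% intervals cut off at the axis limits. Orange marks MUT, purple KO, and the single filled point is Col19a1 in KO at -0.42.

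Col19a1 (Entrez 12823; mm10 chromosome 1, 24257683 to 24587437, minus strand) is a fibril-associated chain that interneurons of the mouse forebrain make and that takes part in forming inhibitory nerve terminals there. It measured 36.1, 35.9, 36.5 and 34.1 CPM in MUT, 31.9, 29.0, 31.9 and 27.4 CPM in KO, and 39.2, 40.1, 41.2 and 41.3 CPM in WT. The 3 groups did not overlap: every KO library lay under every MUT library and every MUT library under every WT library. The spread within a group was small, with means of 35.6 ± 1.04 CPM in MUT, 30.0 ± 2.20 in KO and 40.5 ± 1.01 in WT (SD, n = 4 each). The fitted log2 fold change in KO against WT was -0.42 (SE 0.06, 95% interval -0.54 to -0.30), or 0.749-fold, with an edgeR adjusted p of 0.0247. In MUT against WT it was -0.16 (SE 0.06, edgeR adjusted p = 0.41) and in MUT against KO 0.26 (SE 0.06, edgeR adjusted p = 0.637), and neither passed. The depth behind these values was 491 to 835 counts per library. In whole cortex, fewer cells that make a chain and less RNA per cell cannot be told apart.

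The levels of the interneuron list, taken as the mean over its members of log2 CPM centred on each gene's mean, were -0.04 to 0.07 in MUT, -0.09 to 0.01 in KO and -0.04 to 0.03 in WT, and overlapped between the groups. Those of the list of excitatory cortical neurons were -0.04 to -0.02 in MUT, -0.05 to 0.06 in KO and -0.04 to 0.06 in WT. In KO against WT, 14 of the 19 interneuron genes tested had log2 fold changes below 0 and 5 above, where 7457 of all 15298 genes lay below 0. The median of the interneuron genes was -0.10, and their values ran from -0.34 to 0.47. At an unadjusted p under 0.05 in edgeR 3 were lower (15.8%, where 9.71% of all genes were). Without overlap 2 lay lower (10.5%, where 4.82% of all genes did). One of these is Kcnc2, a potassium channel of fast-spiking interneurons named after its values were seen, at -0.14 in MUT against WT (SE 0.05, edgeR adjusted p = 0.41) and -0.20 in KO against WT (SE 0.05, edgeR adjusted p = 0.0811), with no overlap with WT in either. In MUT against WT 10 of the 19 were below 0 (median -0.01). The part of interneuron content in the Col19a1 values was not tested. Col19a1 kept its direction in all 27 alternative settings, with log2 fold changes in KO against WT between -0.45 and -0.37, and stayed called in 16 of them. The edgeR call was lost without 1 library in 5 cases: adjusted p = 0.116 without WT2, 0.0634 without WT4, 0.0515 without MUT4, 0.104 without KO1 and 0.122 without KO2. In mice under 310 days, where WT1 is the only WT library and is assumed to vary as the null libraries do, the log2 fold change was -0.41, and with the striatal level as a term -0.38 (edgeR adjusted p = 0.0861).

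**Figure D3:**
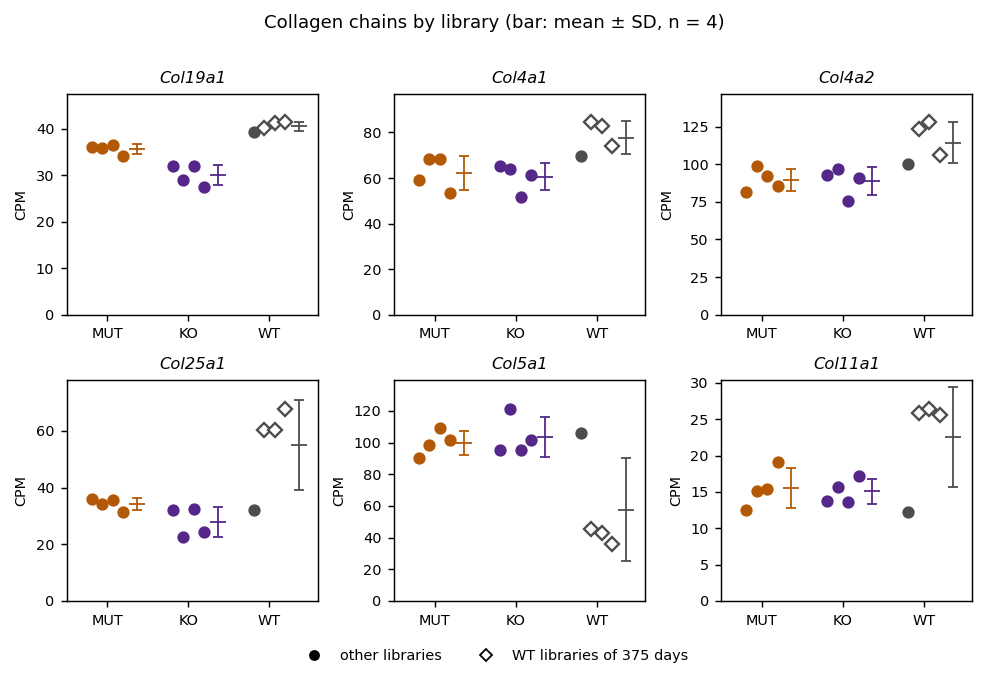
CPM of 6 chains in each library, with bars at the mean and SD of 4 libraries; open diamonds are the WT libraries of 375 days. For Col19a1, WT1 lies beside the other WT libraries. For Col4a1 and Col4a2 it lies just above the highest MUT library and below the other WT libraries. WT1 lies near the MUT and KO libraries for Col25a1 and Col5a1 and below them all for Col11a1.

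Col25a1 (Entrez 77018; mm10 chromosome 3, 130180845 to 130599883, plus strand) is a neuronal transmembrane chain whose shed ectodomain is found in the amyloid plaques of Alzheimer's disease. It measured 36.0, 34.3, 35.6 and 31.3 CPM in MUT, 32.2, 22.7, 32.6 and 24.2 CPM in KO, and 31.9, 60.3, 60.4 and 67.9 CPM in WT. WT1 lay among the null libraries, and the 3 WT libraries of 375 days lay above all others. The log2 fold change was -0.52 in MUT against WT (SE 0.22, edgeR adjusted p = 0.436) and -0.88 in KO against WT (SE 0.20, edgeR adjusted p = 0.0794). In mice under 310 days, which leaves WT1 as the only WT library, it was 0.10 in MUT and -0.20 in KO. Without WT1 it was -0.87 in MUT (edgeR adjusted p = 0.00895) and -1.17 in KO (edgeR adjusted p = 0.000794). With only the WT libraries of 375 days left, edgeR called 1030 of 15480 genes in MUT and 1619 in KO. In KO the value stayed negative in all 27 alternatives, but it ranged from -1.17 to -0.09 and was called in 4 of them. KO2 and KO4 lay below WT1. The 3 oldest WT libraries, in which Col25a1 was highest, had striatal marker levels of 0.77, 1.58 and 2.46, against -0.67 to -0.42 in MUT, -0.75 to 0.17 in KO and -0.84 in WT1.

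Col24a1, a minor fibrillar chain, measured 12.2 to 18.7 CPM in MUT, 11.3 to 16 CPM in KO and 14.3 to 21.2 CPM in WT, so the groups overlapped. Its log2 fold change in KO against WT was -0.32 (SE 0.13, edgeR adjusted p = 0.242), which missed the threshold. Col23a1, a second neuronal transmembrane chain, measured 10.3 to 21.6 CPM in MUT, 14.6 to 16.7 CPM in KO and 7.6 to 19.5 CPM in WT, and its KO libraries lay within the spread of both other groups. Col23a1 (51289920 to 51583925) and Col1a1 (94936270 to 94951867) are the chains on chromosome 11, the chromosome of Grn, and neither was called in any comparison.

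Col4a1 and Col4a2 build the type IV network of vascular basement membranes, and mutations in either cause small-vessel disease in human brain. In the deposited coordinates (mm10 chromosome 8) Col4a1 lies at 11198423 to 11312826 on the minus strand and Col4a2 at 11312829 to 11449287 on the plus strand. Their facing gene ends are thus 3 bases apart there. The Col4a2 promoter window was placed by a RefSeq start site that differs from its deposited gene end. Col4a1 measured 59.0, 68.4, 68.2 and 53.3 CPM in MUT, 65.3, 64.1, 51.9 and 61.2 CPM in KO, and 69.6, 84.4, 82.9 and 73.9 CPM in WT. Col4a2 measured 81.7, 98.6, 92.0 and 85.4 CPM in MUT, 92.5, 96.9, 75.3 and 90.6 CPM in KO, and 99.9, 123, 128 and 106 CPM in WT. For both chains every WT library, WT1 included, lay above every library of the null groups. WT1 lay nearer to the highest null library, MUT2, than to the next WT library, WT4. For Col4a1 these were 69.6 CPM in WT1, 68.4 in MUT2 and 73.9 in WT4. For Col4a2 they were 99.9 CPM in WT1, 98.6 in MUT2 and 106 in WT4. Neither chain passed the test. In MUT against WT the log2 fold changes were -0.22 (SE 0.08, edgeR adjusted p = 0.41) for Col4a1 and -0.27 (SE 0.09, edgeR adjusted p = 0.395) for Col4a2. In KO against WT they were -0.31 (SE 0.08, edgeR adjusted p = 0.0811) for Col4a1 and -0.32 (SE 0.08, edgeR adjusted p = 0.0842) for Col4a2.

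The 2 type IV chains moved together from library to library: their ratio per length, Col4a1 over Col4a2, stayed between 0.607 and 0.72 over the 12 libraries. By contrast the ratio of Col1a1 to Col1a2, the chains of type I collagen, ranged between 0.519 and 1.60, and that of Col6a1 to Col6a2 between 2.66 and 4.63. Endothelial list levels were -0.09 to 0.30 in MUT, -0.15 to 0.12 in KO and -0.14 to 0.11 in WT, and those of pericytes and smooth muscle -0.16 to 0.50 in MUT, -0.28 to 0.15 in KO and -0.24 to 0.23 in WT. In KO against WT, 13 of the 15 pericyte and smooth muscle genes tested had log2 fold changes below 0 (median -0.18), as did 12 of the 16 endothelial genes (median -0.12). This is the direction of Col4a1 and Col4a2, and 7457 of all 15298 genes lay below 0. At an unadjusted p under 0.05 in edgeR, 2 (13.3%) and 1 (6.25%) were lower, where 9.71% of all genes were. In MUT against WT the counts below 0 were 10 of 15 (median -0.01) and 12 of 16 (median -0.03). None of these genes was at 0 in every library, and their part in the type IV values was not tested. In mice under 310 days the log2 fold changes in KO were -0.30 for Col4a1 and -0.24 for Col4a2, again with WT1 alone as WT. Without WT1 both were called by edgeR in KO (adjusted p = 0.0474 for Col4a1 and 0.0377 for Col4a2). That setting leaves only WT libraries of 375 days, and in it edgeR called 1619 of 15480 genes and 10 chains in KO. DESeq2 called both in KO on all libraries (adjusted p = 0.0147 for Col4a1 and 0.0158 for Col4a2), where it called 647 genes (4.23%). Chains with no overlap between KO and WT libraries numbered 3, all lower (Col19a1, Col4a1 and Col4a2), where 9.11% of all genes did not overlap, 4.82% lower and 4.29% higher.

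The other vascular chains, the multiplexins Col15a1 and Col18a1, the second of which releases endostatin, showed no such pattern. Col15a1 measured 5.83 to 8.75 CPM in MUT, 5.46 to 10.7 CPM in KO and 6.54 to 10.5 CPM in WT. Col18a1 measured 4.37 to 12.9 CPM in MUT, 4.97 to 9.97 CPM in KO and 5.39 to 9.73 CPM in WT. The groups of both chains overlapped.

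Among the chains classed as meningeal, the type VI subunits that build beaded microfilaments had their lowest means in MUT. Col6a1 (mm10 chromosome 10, 76708792 to 76726044, minus strand) measured 76.0, 89.6, 102 and 90.0 CPM in MUT, 104, 126, 99.0 and 105 CPM in KO, and 110, 165, 112 and 139 CPM in WT. Every MUT library lay under every WT library, and the KO libraries overlapped both. The log2 fold change in MUT against WT was -0.43 (SE 0.12, edgeR adjusted p = 0.385). Its neighbour Col6a2 measured 25.5 to 31.9 CPM in MUT, 30.9 to 32.6 CPM in KO and 31.1 to 36.2 CPM in WT, with -0.20 in MUT against WT (SE 0.08, edgeR adjusted p = 0.427). Neither passed the threshold. MUT1 had the highest level of the meningeal fibroblast list of all libraries (1.14) but the lowest Col6a1 (76.0 CPM) and Col6a2 (25.5 CPM). In that library these chains did not follow the markers of their class, and their cell source in these samples was not tested. In MUT against WT, 4 chains lay wholly lower (Col19a1, Col4a1, Col4a2 and Col6a1) and 1 wholly higher (Col9a2), where 7.09% of all genes did not overlap, 3.71% lower and 3.38% higher.

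Col5a1 (Entrez 12831; mm10 chromosome 2, 27886425 to 28039510, plus strand) measured 90.0, 98.3, 109 and 102 CPM in MUT, 95.3, 121, 95.3 and 102 CPM in KO, and 106, 45.6, 42.7 and 35.8 CPM in WT. WT1 sat with the null libraries and the 3 WT libraries of 375 days lay below all others. The log2 fold change was 0.70 in MUT against WT (SE 0.29, edgeR adjusted p = 0.437) and 0.83 in KO against WT (SE 0.28, edgeR adjusted p = 0.178). In mice under 310 days it was -0.13 in MUT and -0.11 in KO, so its sign turned. Without WT1 it was 1.38 in MUT (edgeR adjusted p = 0.000122) and 1.40 in KO (edgeR adjusted p = 4.45e-05). That choice keeps only the WT libraries of 375 days, and edgeR then called 1030 of 15480 genes in MUT and 1619 in KO.

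Col5a1 and Col25a1 belong to a set of chains that separate the 3 WT libraries of 375 days from the other 9. In those 3 libraries 8 chains were wholly higher than in the other 9 (18.6% of 43, where 7.22% of all genes were): Col19a1, Col25a1, Col4a1, Col4a2, Col11a1, Col12a1, Col5a3 and Col17a1. Of these, Col17a1 passed the low-count filter only with the help of the same 3 libraries. A further 4 chains were wholly lower (9.30%, where 6.84% of all genes were): Col5a1, its partner chain Col5a2, Col9a2 and Col28a1. Col11a1, a fibrillar chain that controls fibril diameter in cartilage, measured 12.5 to 19.1 CPM in MUT, 13.6 to 17.1 CPM in KO, and 12.3, 25.9, 26.5 and 25.6 CPM in WT. Its log2 fold change in KO against WT was -0.48 (SE 0.22, edgeR adjusted p = 0.276), and 0.32 in mice under 310 days. Col12a1, a fibril-associated chain of type I fibrils, measured 9.99 to 17.8 CPM in MUT, 10.2 to 13.8 CPM in KO, and 10.5, 20.0, 22.3 and 22.5 CPM in WT. Its log2 fold change in KO against WT was -0.66 (SE 0.26, edgeR adjusted p = 0.217), and 0.23 in mice under 310 days. For both chains WT1 was the lowest WT library and the sign of the difference turned with the choice of WT libraries.

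Col28a1, a chain of basement membranes around peripheral nerve, measured 1.83 to 2.71 CPM in MUT, 2.33 to 3.02 CPM in KO, and 2.69, 1.11, 1.04 and 0.537 CPM in WT. Its log2 fold change in KO against WT was 0.86 (SE 0.29, edgeR adjusted p = 0.156), and 0.04 in mice under 310 days. Col5a2, which joins Col5a1 in type V collagen, measured 5.71 to 8.31 CPM in MUT, 5.87 to 8.42 CPM in KO and 4.59 to 7.15 CPM in WT, with 0.39 in KO against WT (SE 0.17, edgeR adjusted p = 0.272) and 0.02 in mice under 310 days. For Col28a1, WT1 lay within the range of the null libraries and the other WT libraries below it. Col17a1, an epithelial transmembrane chain named after its values were seen, measured 1.06, 0.476, 0.0573 and 0.304 CPM in MUT, 0.263, 0.105, 1.05 and 0.447 CPM in KO, and 0.11, 1.72, 2.22 and 2.09 CPM in WT. It passed the low-count filter through WT2, WT3 and WT4 together with MUT1 and KO3.

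Col9a2 and Col20a1, both fibril-associated, had higher values in the null groups. Col9a2 measured 13.6, 8.83, 7.22 and 8.87 CPM in MUT, 6.61, 7.33, 8.98 and 7.48 CPM in KO, and 6.76, 5.73, 5.18 and 5.43 CPM in WT. Every MUT library of Col9a2 lay above every WT library, and its log2 fold change in MUT against WT was 0.56 (SE 0.16, edgeR adjusted p = 0.38), and 0.59 in mice under 310 days. Col20a1 measured 7.05 to 9.72 CPM in MUT, 6.26 to 10.4 CPM in KO and 6.14 to 7.26 CPM in WT, with 0.38 in KO against WT (SE 0.16, edgeR adjusted p = 0.238). Neither passed. The most abundant chains outside the classes overlapped between all 3 groups. Col16a1 measured 30.1 to 35.5 CPM in MUT, 31.0 to 35.0 CPM in KO and 31.7 to 39.1 CPM in WT. Col11a2 measured 31.5 to 41.5 CPM in MUT, 33.7 to 40.1 CPM in KO and 30.9 to 37.5 CPM in WT. Col26a1 measured 7.98 to 9.84 CPM in MUT, 8.03 to 12.6 CPM in KO and 8.25 to 10.3 CPM in WT.

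**Figure D4:**
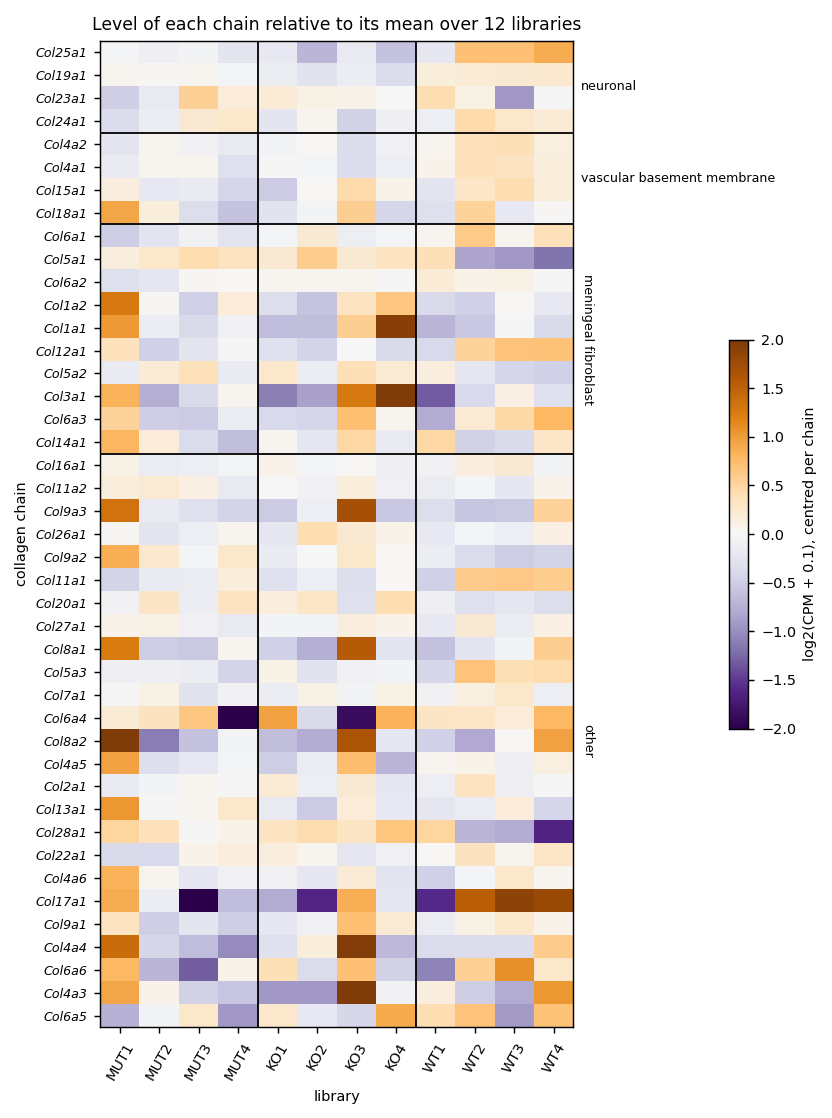
Level of each of the 43 chains in each library as log2(CPM + 0.1) minus the chain's mean over the 12 libraries, with orange above and purple below that mean and the colour scale ending at -2 and 2. Single columns stand out more than blocks of 4: MUT1 and KO3 for Col9a3, Col8a1, Col8a2 and Col4a4, and WT2, WT3 and WT4 for Col5a1, Col25a1 and Col17a1.

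Several chains were highest in the 3 libraries high in choroid plexus markers, MUT1, KO3 and WT4, of which each group holds 1. In these 3 libraries 7 chains were wholly higher than in the other 9 (16.3% of 43, where 2.57% of all genes were) and 0 wholly lower (1.69% of all genes). They were Col9a3, Col8a1 and Col8a2 (short network-forming chains), Col6a3, and the type IV chains Col4a3, Col4a4 and Col4a5, best known from the kidney's filter. Apart from Col9a3 they are named here after their values were seen. Col4a3 and Col4a4 passed the low-count filter only with the help of these 3 libraries, so their place in the count is not independent of it. Col9a3 measured 34.7, 12.1, 11.1 and 9.96 CPM in MUT, 9.45, 12.5, 44.5 and 9.27 CPM in KO, and 10.8, 9.18, 9.38 and 19.7 CPM in WT. Col8a1 measured 9.81 CPM in MUT1, 12.2 CPM in KO3 and 6.02 CPM in WT4, and 2.36 to 4.19 CPM elsewhere. The 18 choroid plexus genes of the list, of which 12 passed the filter, had levels of 3.01 in MUT1, 3.30 in KO3 and 2.20 in WT4, and -1.42 to -0.43 in the other 9 libraries. The part of this tissue in each chain's level was not tested. With the choroid plexus level as a term edgeR called 4 chains in KO against WT, and 295 genes in all (1.93%): Col19a1, Col4a1, Col4a2 and Col25a1.

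The fibrillar chains of the meninges and vessel walls varied by library too. Col1a2 measured 38.3, 16.2, 11.3 and 18.0 CPM in MUT, 12.5, 10.5, 19.9 and 24.9 CPM in KO, and 12.2, 11.3, 15.9 and 13.8 CPM in WT. Its partner in type I collagen, Col1a1, measured 19.4, 8.67, 7.28 and 8.99 CPM in MUT, 6.04, 6.08, 14.1 and 36.4 CPM in KO, and 5.77, 6.4, 9.28 and 7.28 CPM in WT. Col3a1, the type III chain of vessel walls, measured 5.51, 1.75, 2.29 and 3.16 CPM in MUT, 1.36, 1.62, 7.48 and 22.3 CPM in KO, and 1.16, 2.28, 3.31 and 2.44 CPM in WT. MUT1, KO3 and KO4 were the highest libraries for all 3 chains, which are described together because of that shared pattern, seen in the values. The list of 20 meningeal fibroblast markers, 19 of them measured, had levels of 1.14 in MUT1, 0.24 in KO3 and -0.34 in KO4, and none of its members was at 0 in any library. So KO4, the highest library for Col1a1 and Col3a1, was not high in these markers, and its Col3a1 to Col1a1 ratio per length of 0.518 was the highest of the 12, against 0.169 in WT1. Of the 10 meningeal chains 0 was called in any comparison.

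**Figure D5:**
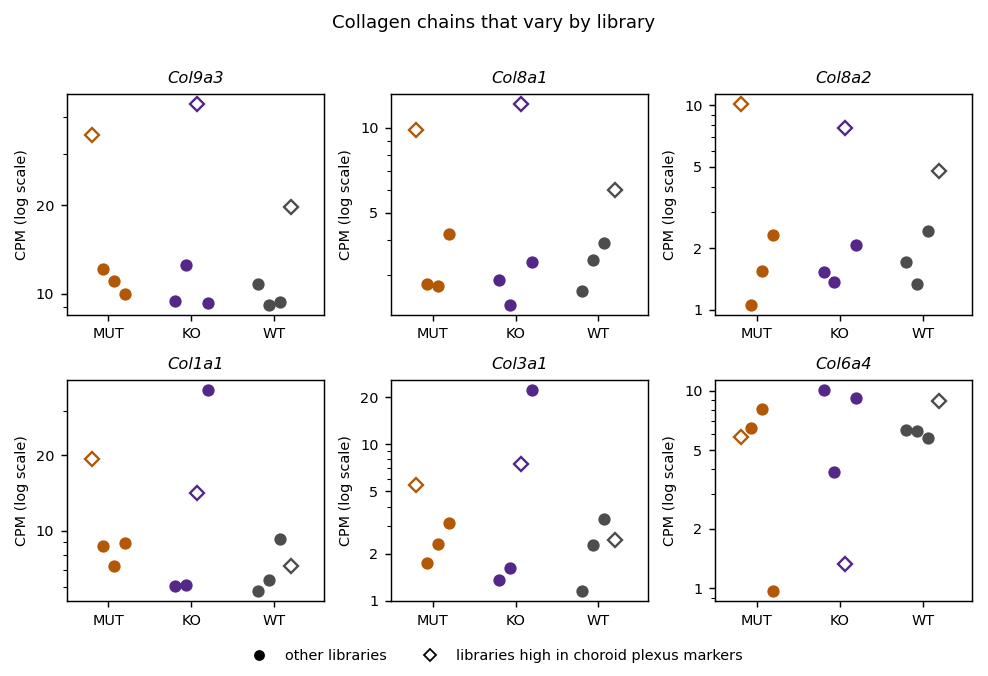
CPM of 6 chains in each library on a log axis; open diamonds are the 3 libraries high in choroid plexus markers. Col9a3, Col8a1 and Col8a2 peak in those 3 libraries, Col1a1 and Col3a1 peak in KO4, and Col6a4 is lowest in MUT4 and KO3.

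Col6a4, one of a cluster of 3 type VI genes on chromosome 9 with Col6a5 and Col6a6, ran the other way in single libraries. It measured 5.85, 6.45, 8.08 and 0.972 CPM in MUT, 10.1, 3.88, 1.33 and 9.16 CPM in KO, and 6.32, 6.23, 5.78 and 8.88 CPM in WT. MUT4 and KO3 stood far below the rest, with 16 and 24 counts. Col6a4 was chosen after its values were seen, and its groups overlapped. Col7a1 of the anchoring fibrils, Col2a1 of cartilage, Col13a1, Col14a1, Col22a1, Col27a1, Col4a6, Col9a1, Col6a5 and Col6a6 were not called in any comparison and had means between 0.437 and 12.5 CPM per group.

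None of the genes listed for processing or binding collagen passed the test. Of the 33 genes listed for collagen folding, modification and cross-linking, 30 were tested and 0 passed in any comparison. Their median log2 fold change was 0.06 in MUT against WT, 0.002 in KO against WT and 0.03 in MUT against KO. At an unadjusted p under 0.05 edgeR gave 3 higher and 0 lower in MUT against WT (10% of the list, where 10.9% of all genes passed), 4 higher and 3 lower in KO against WT (23.3%, where 17.6% did), and 4 higher and 0 lower in MUT against KO (13.3%, where 5.69% did). Of these, named after their values were seen, Tll1, a protease that trims procollagen ends, averaged 2.25 ± 0.419 CPM in MUT, 1.35 ± 0.350 in KO and 2.65 ± 0.442 in WT (SD, n = 4 each), with -0.93 in KO against WT (SE 0.23, edgeR adjusted p = 0.0811). Serpinh1, the collagen chaperone, averaged 21.5 ± 4.01 CPM in MUT, 17.1 ± 0.870 in KO and 16.2 ± 0.589 in WT, with 0.38 in MUT against WT (SE 0.12, edgeR adjusted p = 0.392). Of the 28 receptors and matrix partners, among them the integrins, discoidin receptors, laminins and nidogens, 26 were tested and 0 passed. Their medians were 0.09 in MUT against WT, -0.07 in KO against WT and 0.13 in MUT against KO. At an unadjusted p under 0.05 edgeR gave 1 higher and 0 lower in MUT against WT (3.85% of the list, where 10.9% of all genes passed), 0 in either direction in KO against WT (17.6% of all genes), and 2 higher and 0 lower in MUT against KO (7.69%, where 5.69% did).

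Between MUT and KO, the comparison that asks what the humanized line adds to loss of mouse Grn, Col19a1 was the single chain whose libraries did not overlap (5.22% of all genes did not overlap, 3.37% higher in MUT and 1.85% lower). It is also the single chain at an unadjusted p under 0.05 in edgeR. The 95% intervals of the MUT against KO log2 fold changes were -0.08 to 0.26 for Col4a1 and -0.12 to 0.23 for Col4a2, -0.07 to 0.81 for Col25a1 and -0.78 to 0.50 for Col5a1. They give the range of differences compatible with these libraries at that level, not the smallest difference the test could have found.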

How the data were processed

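Directional libraries were built from 200 ng of total RNA of mouse cortex, per the labels' protocols. The authors deposited 1 table of raw counts, with a row per gene and a column per library (12 in all), in the column layout of featureCounts, per the file headers. Per the submitters' processing notes the build was mm10 and the software R 4.1.2 and DESeq2 1.34.0. Aligner, counter and strand setting were not given in the sources used here. Reads of genes that overlap, on the same or the opposite strand, may therefore be mixed. Library totals were 16381221 to 20782195 counts, the 1049 genes without a symbol included.

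The low-count filter was filterByExpr of edgeR (minimum count 10, total 15, by group), which left 15298 genes with a floor near 0.546 CPM. After TMM scaling (factors 0.974 to 1.03), edgeR 4.0.16 under R 4.3.3 fitted 1 robust quasi-likelihood model to all 12 libraries, its terms being group and labelled sex (8 residual degrees of freedom, common coefficient of variation 0.101). P-values were adjusted by Benjamini-Hochberg over all genes tested, with a threshold of 0.05. Standard errors are the log2 fold change over the root of F. List levels average the members' log2 CPM (prior count 2) after centring each gene. Nothing in the labels states that each library is a separate animal; p-values cover the spread between libraries, which may be technical. No pair of libraries agreed within sampling noise (over 66 pairs chi-square was at least 3.55 per degree of freedom).

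The members, classes and lists were chosen with earlier results of these data known. The text names Grn, every chain past the threshold or at an unadjusted p under 0.05, the 4 highest chains per length of each class, and chains said to be chosen after their values were seen; the remaining chains are named outside that rule, to account for every member. Alternatives were other scalings and filters, limma-voom (limma 3.58.1), DESeq2 1.42.0, other covariates, subsets of animals, and each library left out in turn. The test was run on simulated counts with changed genes of 4 fold sizes. For KO against WT (15181 genes) it found 34% of the 1.3-fold changes, 68% of the 1.5-fold, 90% of the 2-fold and 98% of the 4-fold ones, and 12 of its 157 calls were false. For MUT against WT (15180 genes) it found 34%, 66%, 74% and 96%, and for MUT against KO (15167 genes) 36%, 66%, 78% and 96%. These runs gave 138 calls for MUT against WT and 145 for MUT against KO. The deposited counts gave 75 for KO against WT, 2 for MUT against WT and 1 for MUT against KO. The percentages belong to the runs with the larger numbers of calls. What share of such changes the test would find in the deposited counts was not tested.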

Additional observations from a re-analysis of the deposited data

Results flagged for a closer look

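In 129 groups of 4 libraries (43 chains in 3 groups), 16 held a library whose gap to the nearest of the others was above 0.829 of the group's range (12.4%). Chance flags about 1 in 20 independent groups of normally distributed values. The chains share the same 12 libraries, so the groups are not independent and 12.4% cannot be judged against that rate. MUT1 stood highest for Col9a3 (34.7 CPM, others at most 12.1), Col8a2 (10.2, others at most 2.31), Col4a4 (1.74, others at most 0.423), Col4a5 (8.17, others at most 4.01) and Col1a1 (19.4, others at most 8.99). KO3 stood highest for Col9a3 (44.5 CPM, others at most 12.5), Col8a1 (12.2, others at most 3.35), Col8a2 (7.76, others at most 2.07), Col4a4 (2.66, others at most 0.681) and Col4a3 (2.72, others at most 0.558). WT4 stood highest for Col9a3 (19.7 CPM, others at most 10.8) and Col4a4 (0.954, others at most 0.445). These 3 libraries are those with high Ttr, and the part of choroid plexus tissue was not tested. WT1 stood apart from the WT libraries of 375 days as the highest for Col5a1 (106 CPM, others at most 45.6) and the lowest for Col11a1 (12.3 CPM, others at least 25.6). KO4 was lowest for Col6a2 (30.9 CPM, others at least 32.4) and MUT4 lowest for Col5a3 (3.89 CPM, others at least 4.87).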

How the results depend on the processing

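In KO against WT, 75 genes and 1 chain were called in the fit of all 12 libraries. DESeq2 called 647 genes and 4 chains, a fit without labelled sex 294 and 2, and the choroid plexus level as a term 295 and 4. Labelled sex with age called 2 genes and 0 chains, the replicate number as a block 2 and 0, the 2 groups alone 3 and 0, animals under 310 days 11 and 0, the striatal level as a term 1 and 0, and leaving out the 3 choroid plexus libraries 2 and 0. Leaving out 1 library gave 1 to 1619 genes and 0 to 10 chains, the highest of both without WT1. In MUT against WT, 2 genes and 0 chains were called, against 52 genes with DESeq2, 6 without labelled sex, and 2 to 1030 genes and 0 to 8 chains with 1 library left out (the highest without WT1). In MUT against KO, 1 gene was called, against 15 with DESeq2, 2 with sex and age, 39 with the 2 groups alone, 37 in animals under 310 days and 1 to 18 with 1 library left out. The causes were not tested.

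The Col19a1 call in KO was also lost with sex and age (-0.37, edgeR adjusted p = 0.43), with the replicate number as a block (-0.42, edgeR adjusted p = 0.0608), with the 2 groups alone (-0.42, edgeR adjusted p = 0.14) and without the 3 choroid plexus libraries (-0.45, edgeR adjusted p = 0.0574). Same-numbered libraries of different groups shared little of their deviation from the group means: of 12 such pairs 1 had r over 0.1 (range -0.377 to 0.289). These deviations include differences in tissue content, so they cannot decide whether the libraries were paired. Col19a1, the single chain called in the fit of all libraries, kept its sign in KO against WT in all 27 alternatives. So did several chains that were never called, among them Col6a1, Col24a1 and Col22a1, so a steady sign does not set Col19a1 apart. Depth limits Col10a1 and the chains under 1 CPM.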
